A study of Sus scrofa with 31 samples.

Results

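CD163 and MRC1 encode receptors that let macrophages bind and take up proteins, debris and sugars. SCART1 is named after a scavenger receptor of T cells. These genes were followed across 31 RNA sequencing samples of male piglets. The tags in the sample labels gave 15 piglets, fewer than the paper states. CD163, MRC1 and SCART1 are the 3 of 5 scavenger and mannose receptor genes considered that the supplementary gene tables of the study pair with an identifier. The count table held 31907 genes. MARCO and MSR1 had no such pairing and were not analysed here. Those tables mostly hold genes that the study called different on these same samples, so the presence of SCART1 among them is not independent evidence of its direction.

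The groups were microglia, the resident macrophages of the brain, sorted from 3 brain regions, namely hippocampus, cerebellum and frontal cortex (n = 8 samples per region), alveolar macrophages from lung lavage (n = 3) and whole hippocampal tissue (n = 4). The animals were Large White × Landrace by Danish Duroc crosses born in standard or freer housing, which the sample labels do not record. Microglia were gated as CD11b high and CD45 negative or low, and macrophages as F4/80 positive and CD163 low or negative, so CD163 protein was itself part of the macrophage gate. The label tags placed 9 pigs in more than 1 sample, 7 of them with microglia of more than 1 region. The paper states that multiple brain regions were sampled for more pigs than this, and the pairings below rest on the tags.

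CD163 clears complexes of haemoglobin and haptoglobin and belongs to the receptors with cysteine-rich scavenger domains. MRC1 is the mannose receptor, an endocytic C-type lectin that binds sugars ending in mannose. Both are widely used to tell macrophages of tissue borders, such as the meninges and perivascular spaces, from microglia of the parenchyma. SCART1 takes its name from a scavenger receptor expressed on T cells, and the gene studied here is described as SCART1-like.

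The 250 bases upstream of each annotated start, from RefSeq on Sscrofa11.1 and written 5′ to 3′ on the strand of the gene, are shown because CD163 and MRC1 were high in the same samples. Capitals mark matches to GAGGAA, a core read by the myeloid factor PU.1, or to its reverse complement TTCCTC. The windows lie at chr5:63299950-63300199 for CD163, chr10:44107676-44107925 for MRC1 and chr14:141444010-141444259 for SCART1, all on the plus strand.
CD163: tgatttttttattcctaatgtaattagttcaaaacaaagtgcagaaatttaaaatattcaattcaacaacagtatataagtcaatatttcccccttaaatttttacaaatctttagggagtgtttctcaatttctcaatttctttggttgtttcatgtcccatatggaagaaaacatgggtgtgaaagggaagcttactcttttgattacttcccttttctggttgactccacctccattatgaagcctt
MRC1: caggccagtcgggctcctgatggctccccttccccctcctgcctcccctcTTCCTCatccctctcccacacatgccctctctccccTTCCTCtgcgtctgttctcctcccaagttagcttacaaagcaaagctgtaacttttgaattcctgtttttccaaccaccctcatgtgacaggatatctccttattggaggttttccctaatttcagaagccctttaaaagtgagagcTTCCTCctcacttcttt
SCART1: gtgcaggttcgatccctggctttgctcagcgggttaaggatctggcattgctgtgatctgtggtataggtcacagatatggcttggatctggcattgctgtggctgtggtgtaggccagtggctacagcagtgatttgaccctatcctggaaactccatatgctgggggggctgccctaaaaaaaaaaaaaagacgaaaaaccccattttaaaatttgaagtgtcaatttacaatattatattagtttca
MRC1 held 3 matches, all as TTCCTC, beginning 200, 164 and 17 bases before the start. The CD163 and SCART1 windows held none of these letters. Of 19559 protein-coding genes, 4297 had a match on either strand of the same window.

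Libraries held 18438494 to 43477403 gene counts, and 3 counts, the floor used here, equalled 0.069 to 0.163 CPM (counts scaled to library size). This floor covers counting error only. Levels are CPM after TMM normalization, mean ± SD over samples. The 7 microglia markers summed to 3849 to 7921 CPM in microglia and to 164 to 339 CPM in macrophages. The 6 alveolar macrophage markers summed to 323 to 612 CPM in macrophages and to 123 to 318 CPM in microglia. In the test described below, 3 of 5 tested were called lower and 0 higher in microglia. Over all tested genes 10.1% were called lower and 12.2% higher. Among these markers, the F4/80 gene ADGRE1 had 95.9 ± 43.9 CPM in macrophages and was at 0 in all 24 microglia samples. FABP4, another of them, was at 0 in macrophages. The 8 lymphoid markers summed to 959 to 1562 CPM in macrophages against 60.8 to 186.9 CPM in microglia, and T cell CD3E averaged 244 ± 117 CPM. The 8 neutrophil and epithelial markers summed to 457 to 884 CPM in macrophages against 5.05 to 39.6 CPM in microglia.

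CD163 was abundant in alveolar macrophages and scarce in every brain sample. Its levels in the 3 macrophage samples were 303, 343 and 587 CPM, with counts of 11274, 12217 and 26861. In cerebellar microglia they ran from 0.149 through a median of 1.92 to 11.06 CPM. In frontal cortex microglia the lowest, median and highest levels were 1.19, 2.67 and 22.6 CPM. Every brain sample lay below every macrophage sample, although the gate took macrophages with little CD163 on the surface. The share of all genes that separate these groups was not counted, and CD163 passed the filter through macrophages alone. In hippocampal microglia CD163 ran from 0.16 through 1.55 to 6.66 CPM, and in hippocampal tissue the 4 samples had 1.64, 1.88, 2.27 and 3.20 CPM. The brain groups overlapped, and cerebellar, frontal cortex and hippocampal microglia averaged 0.743%, 1.76% and 0.564% of the macrophage mean.

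MRC1 was likewise abundant in macrophages, whose mean was 576, 182 and 254 times that of cerebellar, frontal cortex and hippocampal microglia and 97.2 times that of tissue, against 135, 56.9, 177 and 183 times for CD163. The macrophage samples had 218, 236 and 350 CPM, from 7761, 8764 and 16012 counts. MRC1 had no counts in 8 of 24 microglia samples, namely 2 cerebellar, 3 frontal cortex and 3 hippocampal ones. The highest microglia level was 8.49 CPM, in frontal cortex of pig 12891, and the next in that region was 1.04 CPM. Microglia averaged 0.465 ± 0.445 CPM in cerebellum, 1.47 ± 2.87 CPM in frontal cortex and 1.06 ± 1.31 CPM in hippocampus. Hippocampal tissue had 1.82, 2.05, 3.23 and 3.93 CPM. The highest levels were 1.34 CPM in cerebellar, 3.29 CPM in hippocampal and 8.49 CPM in frontal cortex microglia.

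SCART1 was read almost only in macrophages, at 31.1, 46.0 and 84.4 CPM. It had no counts in 22 of 24 microglia samples, and the others held 2 counts in cerebellum of pig 12750 and 27 counts in frontal cortex of pig 12599. In tissue, 1 of 4 samples held 4 counts. Against a floor of 3 counts in each library, the macrophage mean was at least 495-fold higher than hippocampal and at least 417-fold higher than cerebellar microglia. SCART1 was highest in the macrophages of pig 12829, whereas CD163 and MRC1 were highest in those of pig 12984. CD3E had the order of SCART1, with 370 CPM in pig 12829, 223 in pig 12821 and 138 in pig 12984. The part of lymphoid cells in the SCART1 level was not tested.

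**Figure D1:**
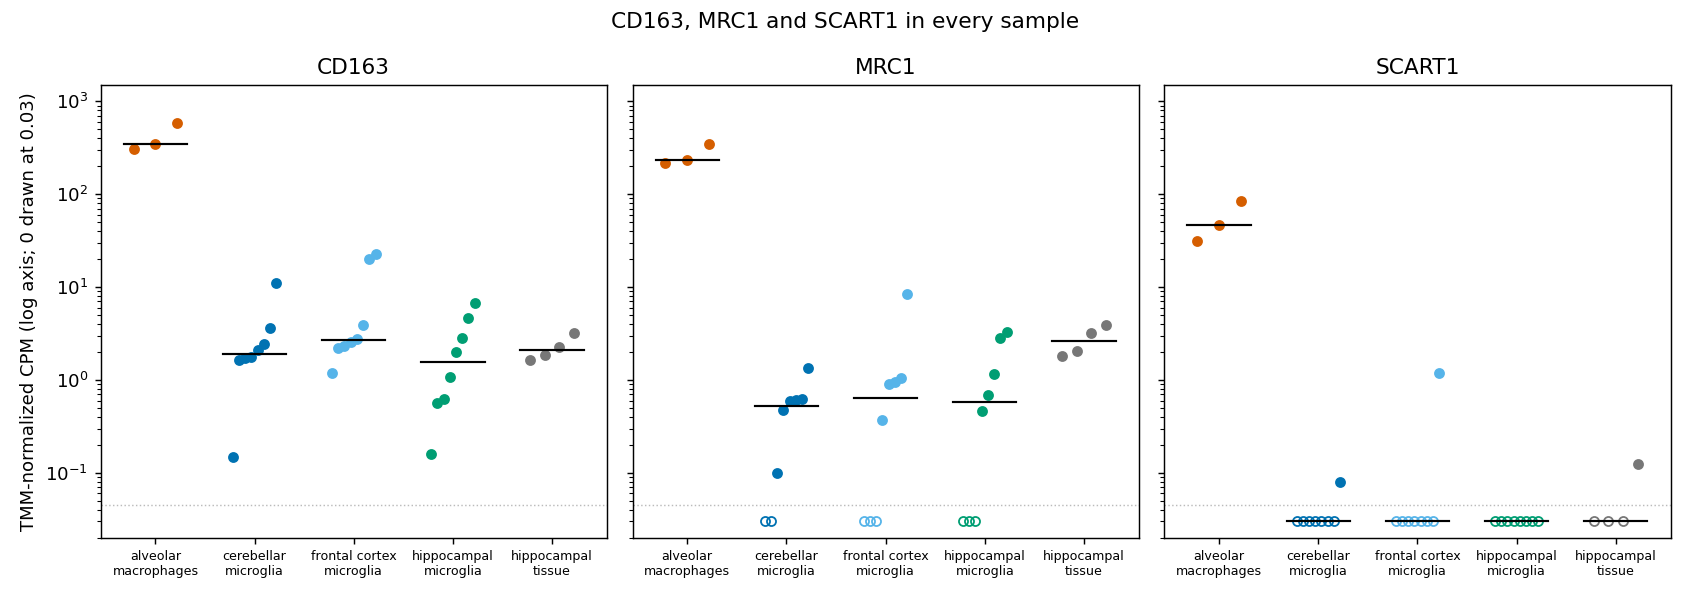
Points are TMM-normalized CPM (log axis) of CD163, MRC1 and SCART1 in each sample of the 5 groups, bars are medians, and open points below the dotted line are samples at 0, drawn at 0.03. The 3 macrophage samples lie above all brain samples for each gene, a separation that was not counted over all genes. Frontal cortex microglia reach 22.6 CPM of CD163.

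Per kilobase of exon, CD163 was the most abundant of the 3 in macrophages, at 106 ± 39.6 CPM per kilobase, followed by MRC1 at 52.0 ± 13.9 and SCART1 at 12.6 ± 6.43. Over the 24 microglia samples the same scale gave 1.08 ± 1.49 for CD163 and 0.194 ± 0.351 for MRC1.

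The comparison of microglia with alveolar macrophages asked which genes set brain macrophages apart from those of the lung. By edgeR, with p-values adjusted by Benjamini-Hochberg, 22.3% of 11633 tested genes were called (adjusted p under 0.01 and fold over 3), 12.2% of all tested as higher and 10.1% as lower in microglia. CD163 was lower in microglia by a log2 fold change of -6.79 ± 0.59 (SE back-calculated from the F statistic, edgeR adjusted p = 6.0e-11). MRC1 was lower by -8.22 ± 0.82 (edgeR adjusted p = 1.16e-09). The fitted value of SCART1 was -11.33 ± 1.15 (edgeR adjusted p = 1.49e-08), which depends on the prior count because most microglia were at 0. When edgeR took the pig as a replicate block, SCART1 was no longer called (adjusted p = 0.0817), nor was it in DESeq2 (adjusted p = 0.0130). That block was a term for each pig, so the macrophages of pig 12984, its only sample, added nothing to the contrast. It rested on the macrophages of 2 pigs, 12821 and 12829. All 3 genes entered the test through macrophages alone, the group where they were high. In bulk samples such as these, fewer cells of a type and less RNA per cell cannot be told apart.

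Other receptors that handle similar cargo were measured in both directions. Of 13 scavenger receptors tested, out of 16 with an identifier, 2 were higher and 4 lower in microglia, with a median log2 fold change of 0.54 against 0.06 over all genes. Over all tested genes 12.2% were called as higher and 10.1% as lower. SCARB2, which carries a lysosomal enzyme, rose by 3.30 ± 0.23 on the log2 scale and SCARB1, a receptor of high-density lipoprotein, by 2.24 ± 0.16. The genes lower in microglia were CD6 and CD5, both T cell receptors of the scavenger family, OLR1, a receptor of oxidized lipoprotein, and COLEC12, a scavenger receptor with a collagen domain. In macrophages CD6 averaged 71.2 and CD5 102 CPM, and in microglia 0.0220 and 0.491 CPM. CD68, a lysosomal glycoprotein, and STAB1, a clearance receptor, differed by 1.04 ± 0.25 and 1.07 ± 0.33 (edgeR adjusted p = 0.000743 and 0.00617) and stayed under the fold of 3.

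Among C-type lectins and relatives of the mannose receptor, 3 were higher and 6 lower of 13 tested, and 5 in all were called with the replicate block. Without that block, 22.3% of all tested genes were called. The share with the block is not given here, so the drop cannot be read as particular to these genes. MRC2, a relative of MRC1 that binds collagen, had 960 ± 242 CPM in microglia and 29.3 ± 11.7 CPM in macrophages, a log2 fold change of 5.02 ± 0.30 (edgeR adjusted p = 1.4e-14, as adjusted over all genes). LY75, another endocytic member of the family, rose by 2.91 ± 0.20 and PLA2R1 by 7.47 ± 2.35. The lower genes included CLEC17A, CD69, CLEC2B and CD93, and CD69 is an activation marker of lymphocytes. MRC1 and MRC2 had opposite directions in this contrast.

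**Figure D2:**
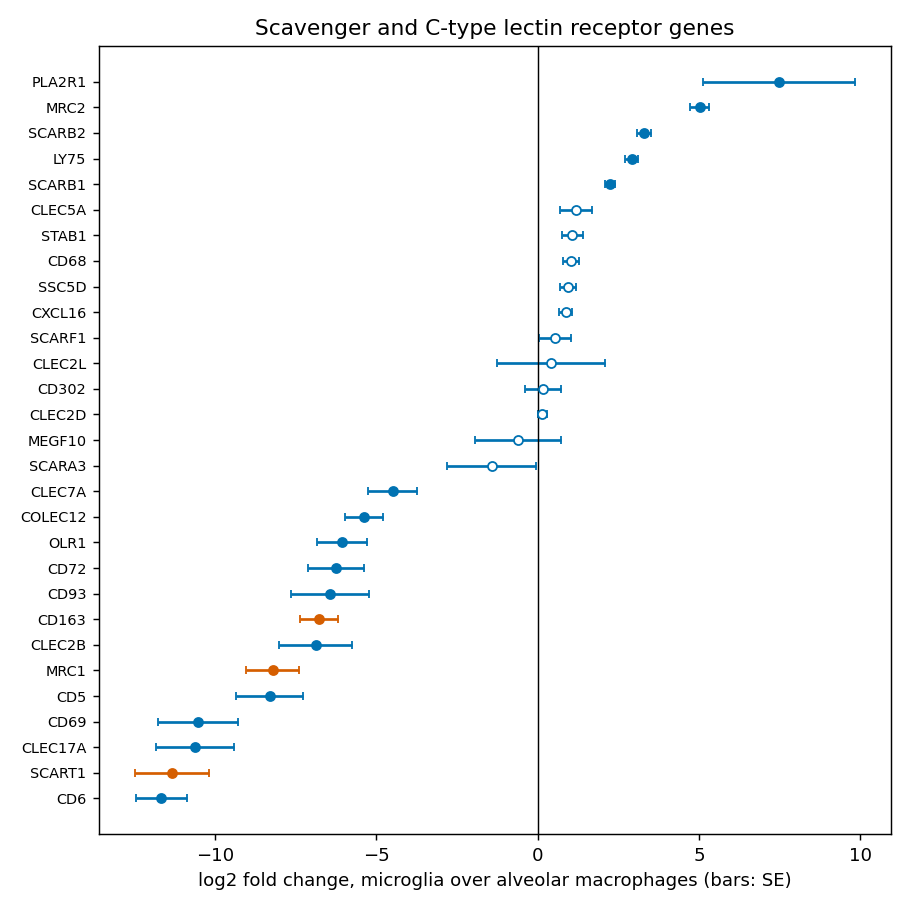
Points are log2 fold changes of microglia over alveolar macrophages for CD163, MRC1 and SCART1 (orange) and the tested scavenger and C-type lectin receptor genes (blue). Bars are SE back-calculated from the F statistic, and filled points were called. CD163 at -6.79 and MRC1 at -8.22 lie far from MRC2 at 5.02.

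Genes of haemoglobin, haem and iron handling, which act on the cargo of CD163, split evenly, with 3 higher and 3 lower of 14 tested and a median log2 fold change of -0.03. For this list and the regulators below, the share called over all tested genes was 22.3%. SLC40A1, which exports iron, rose by 3.03 ± 0.30 and CP, a ferroxidase, by 1.98 ± 0.32. The iron store FTH1 and the transferrin receptor TFRC fell by 1.97 ± 0.14 and 1.96 ± 0.14. SLC11A1, an iron and manganese transporter of phagosomes, averaged 39.4 ± 20.1 CPM in macrophages and was at 0 in each microglia sample. Of 15 tested regulators of the receptors, 1 was higher and 4 were lower. These were CSF1R, the growth factor receptor of the lineage, with 3.65 ± 0.30, and the transcription factors IRF4, KLF4 and PPARG with the cytokine receptor IL10RB, which were lower by -9.99 ± 0.66, -6.52 ± 1.05, -2.11 ± 0.52 and -2.09 ± 0.32.

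Markers of border macrophages and monocytes, 11 tested, were higher in microglia for 2 and lower for 5, where 22.3% of all tested genes were called. MS4A7 rose by 5.38 ± 0.27 and TGFBI by 2.51 ± 0.32. THBS1, CD44, CD9 and F13A1 were lower, CD44 by -6.89 ± 0.36. LYVE1, which defines one border macrophage population, was at 0 CPM in macrophages and averaged 0.0862, 0.506 and 0.0605 CPM in cerebellar, frontal cortex and hippocampal microglia. The frontal cortex mean came mostly from pigs 12599 and 12891, at 2.70 and 1.24 CPM.

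Hippocampal microglia were compared with whole hippocampal tissue, where 33.8% of genes were called (adjusted p under 0.01 and fold over 4), 11.7% as higher and 22.1% as lower in microglia. CD163 differed by 0.05 ± 0.84 on the log2 scale (edgeR adjusted p = 0.959) and MRC1 by -1.37 ± 1.10 (edgeR adjusted p = 0.258). Both missed the threshold, and the errors leave room for differences of either sign in CD163. In the 4 pigs with both samples, tissue held more MRC1 than microglia in 4 of 4. The share of all genes with such agreement was not counted. The MRC1 levels of microglia and tissue were 2.85 and 3.93 CPM in pig 12821, 0 and 1.82 in pig 12829, 0 and 2.05 in pig 12847, and 1.15 and 3.23 in pig 12872. CD163 was higher in microglia in 2 pigs and in tissue in 2. By contrast CD68 rose by 4.44 ± 0.29, MRC2 by 4.38 ± 0.26 and STAB1 by 2.91 ± 0.35 in microglia over tissue, while SCARB2 differed by 0.03 ± 0.17 and SCARB1 by 1.43 ± 0.14, under the fold of 4.

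**Figure D3:**
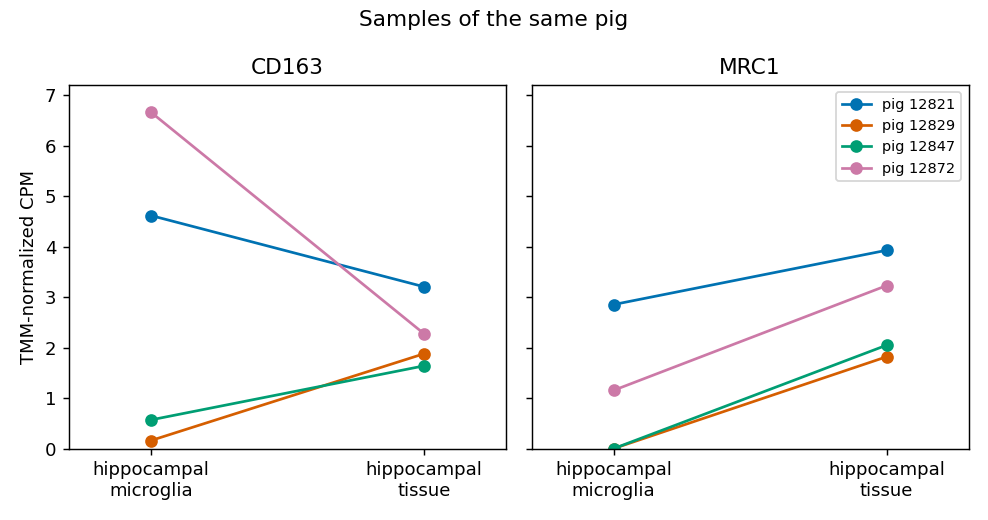
Lines join hippocampal microglia and hippocampal tissue of the same pig (4 pigs), with TMM-normalized CPM on the vertical axis. All 4 MRC1 lines go up toward tissue, and CD163 goes up in 2 and down in 2.

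Of the lists in this comparison, scavenger receptors had 3 higher and 3 lower of 13, and C-type lectins 5 higher and 3 lower of 13. Over all tested genes 33.8% were called, 11.7% as higher and 22.1% as lower. SCARA3, MEGF10 and COLEC12 were lower in microglia and CXCL16, with CD68 and STAB1, higher. The regulators had 9 higher and 2 lower of 15. Iron genes had 2 higher, HMOX1, which degrades haem, and NFE2L2, and 1 lower, TF.

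Alveolar macrophages stood above hippocampal tissue for CD163 by 7.51 ± 1.25 on the log2 scale (edgeR adjusted p = 7.2e-06) and for MRC1 by 6.60 ± 1.63 (edgeR adjusted p = 0.000875), where 29.6% of genes were called. SCART1 had a fitted value of 10.57 ± 2.43 (edgeR adjusted p = 0.000654), and that call was lost with the replicate block (adjusted p = 0.0647) and in DESeq2 (adjusted p = 0.0598). The macrophage samples are the same as above, so these values are not independent of the first comparison.

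The 3 microglia regions were compared by an F test, in which 2.03% of genes were called (adjusted p under 0.01). None of the 3 receptors passed (edgeR adjusted p = 0.195 for CD163, 0.537 for MRC1 and 0.0701 for SCART1). Without adjustment edgeR would have called 1 of them at 0.05, SCART1, on the strength of 27 counts in a single library. By limma-voom and DESeq2 none passed after adjustment. Frontal cortex microglia exceeded hippocampal microglia in CD163 by 1.62 ± 0.69 on the log2 scale (edgeR adjusted p = 0.179), a pair in which 0.318% of genes were called. Cerebellar and hippocampal microglia differed in CD163 by 0.40 ± 0.68 (edgeR adjusted p = 0.817), a pair in which edgeR called 0.602% of genes. Within pigs, CD163 was higher in cerebellar than in hippocampal microglia in 4 of 4, and in frontal cortex than in hippocampal microglia in 3 of 3. The cerebellar level was 1.04 to 4.25 times the hippocampal one, the lowest in pig 12758 with 61 against 52 counts. Between cerebellum and frontal cortex, CD163 was higher in frontal cortex in 5 of 6 pigs. The share of all genes with such agreement within pigs was not counted. STAB1 was lower in cerebellar than in frontal cortex microglia by -1.08 ± 0.24 (edgeR adjusted p = 0.00823), in a pair where 1.87% of genes were called.

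A pair of frontal cortex samples held much of the CD163 of that region, 20.2 CPM in pig 12599 and 22.6 CPM in pig 12891, and the other 6 lay at 1.19 to 3.90 CPM. Without them the frontal cortex no longer exceeded the cerebellum in CD163, with a log2 fold change of cerebellum over frontal cortex of 0.30 ± 0.60 in place of -1.23 ± 0.68. These samples also had the highest sums of 7 brain cell markers in their group, 1609 and 950 CPM against a median of 293 CPM, and the highest sums of 8 lymphoid markers, 141 and 169.5 CPM against a median of 91.1 CPM. Their 7 microglia markers summed to 5418 and 5057 CPM, the lowest 2 of the 8. Border macrophage markers summed to 679 CPM in pig 12599 and 995 CPM in pig 12891, where the group ran from 630 to 995 CPM. STAB1 alone gave 168 and 400 CPM of these sums. Single markers, picked after their values were seen, differed. LYVE1 was highest of the group in these samples, at 2.70 and 1.24 CPM, with the next at 0.104 CPM. CD44 was too, at 21.1 and 16.4 CPM, with the next at 11.5 CPM. F13A1 was not, at 0.349 and 0.191 CPM against 2.19 CPM in pig 12720. The part of other cells in the CD163 of both samples was not tested.

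The ratio of CD163 to MRC1 within a library does not depend on scaling between libraries, apart from the 1 added to each count. Where MRC1 was at 0, the ratio rested on the CD163 count alone and so on depth. This held for 3 of 8 hippocampal microglia samples, which had the highest ratios of their group (log2 ratio 2.58 to 4.09). CD163 counts exceeded MRC1 counts in 3 of 3 macrophage, 8 of 8 cerebellar, 8 of 8 frontal cortex and 7 of 8 hippocampal microglia samples, and in 1 of 4 tissue samples. These are counts of genes with exons of 3884 bases (CD163) and 5150 bases (MRC1), and per exon length CD163 was the higher in 3 of 4 tissue samples, with ratios of 0.934, 1.06, 1.08 and 1.37. The mean log2 ratio (counts + 1) was 0.59 ± 0.20 in macrophages, 2.01 ± 1.80 in hippocampal microglia and -0.27 ± 0.23 in tissue. Hippocampal microglia exceeded tissue by 2.28, which missed the threshold after adjustment (two-sided exact permutation test, p = 0.0444, adjusted p = 0.0889 over 2 tests), and macrophages by 1.43 (exact p = 0.291, adjusted p = 0.291). The test took no account of shared pigs. In the 4 pigs with both samples the log2 ratio was higher in microglia, at 0.69 against -0.29 in pig 12821, 2.58 against 0.05 in pig 12829, 3.81 against -0.32 in pig 12847 and 2.49 against -0.50 in pig 12872. MRC1 was at 0 in the microglia of pigs 12829 and 12847, with 5 and 13 CD163 counts. The hippocampal microglia sample of pig 12781 alone in its group had more MRC1 than CD163, with 29 CD163 and 88 MRC1 counts. Each sample was left out in turn, and both calls changed only without this one, the lowest ratio of its group. The differences were then 2.79 against tissue and 1.94 against macrophages (exact permutation adjusted p = 0.0121 and 0.0333), which shows that 1 library decides the calls and is no further support for a difference.

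**Figure D4:**
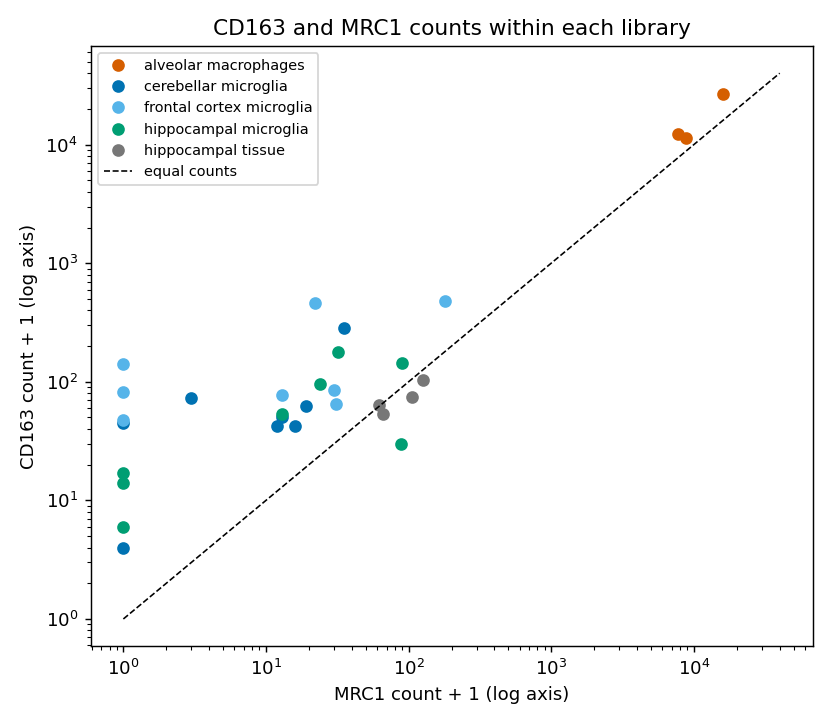
Each point is 1 library, with MRC1 count + 1 on the horizontal and CD163 count + 1 on the vertical axis (both log), colored by group, and the dashed line marks equal counts. Macrophages sit in the top right corner, and 3 of 4 tissue samples and 1 hippocampal microglia sample lie below the line of equal counts, which takes no account of exon length.

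Within each region CD163 and MRC1 were positively correlated over samples, and none of the 6 values held after adjustment. Pearson's r of log2 CPM was 0.660 in cerebellum, 0.664 in frontal cortex and 0.762 in hippocampus, with exact permutation p of 0.0486, 0.0872 and 0.0353 and adjusted p of 0.128, 0.131 and 0.128 (n = 8 each). Spearman's rho was 0.527, 0.366 and 0.708, with exact permutation p of 0.185, 0.379 and 0.064 (adjusted p = 0.222, 0.379 and 0.128). Without the 2 samples farthest from the median CD163, r was -0.152 in cerebellum, 0.0874 in frontal cortex and 0.727 in hippocampus, so the relation in the first 2 regions rests on those samples.

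The genes whose log2 CPM most resembled each receptor over the 31 samples are given as a description, in which the samples share the gap between lung and brain. For SCART1 they were IL7R (r = 0.985), CXCR3 (0.973), CD6 (0.967), CD69 (0.966) and CYP4F3 (0.962). For CD163 they were CD244 (0.861), IL7R (0.860), SCART1 (0.859), TCF7 (0.858) and CXCR3 (0.856). For MRC1 they were CHAF1A (0.861), LGALS3 (0.853), CD163 (0.852), PNP (0.846) and CYSLTR2 (0.846). Over the 24 microglia samples with the region mean removed, CD163 resembled ADCY3 (r = 0.818), SMOX (0.735), SIK1 (0.714), PLEKHG5 (0.712) and HIPK2 (0.702), and MRC1 resembled PDZRN3 (0.722), CD163 (0.689), GRB14 (0.660), CACNG3 (0.650) and ADCY3 (0.637). SCART1 had over 3 counts in a single microglia sample, so no likeness is given for it there. By Spearman's coefficient none of the 5 genes for CD163 over 31 samples was kept, and 4 of 5 over microglia were. For MRC1, 2 of 5 over 31 samples and 1 of 5 over microglia were kept, and for SCART1 3 of 5 over 31 samples.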

How the data were processed

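The authors trimmed paired-end reads with BBtools, aligned them with HISAT2 to Sscrofa11.1 and deposited raw counts per Ensembl gene made with StringTie, not normalized. Counts of 31 samples were used as deposited. Symbols came from the supplementary tables and, for listed genes without an entry there, from a reference gene table, and exon lengths and starts from RefSeq. The members and gene lists were chosen with earlier results of these data known. The filter kept 11633 genes, those above 10 CPM throughout 1 or more groups. TMM factors were 0.826 to 1.16. edgeR 4.0.16 in R 4.3.3 fitted 5 groups in 1 quasi-likelihood model without a pig term, and log2 CPM used a prior count of 2. Each SE of an edgeR log2 fold change was its absolute value over the square root of the F statistic. It was not estimated separately and means little where a group is at 0. Listed genes were named when among the 4 called genes with the largest fold in a direction, and MRC2, SCARB1, SCARB2, CD68 and STAB1 always; LYVE1, CD3E, ADGRE1 and FABP4 were named after their values were seen. Samples of the same pig are paired by the tag in their labels, and limma 3.58.1 estimated a within-pig correlation of 0.205. Alternatives were limma-voom, which the study used, DESeq2 1.42.0, RLE or no factors, filterByExpr or no filter, only the groups compared, pig as a replicate block and each sample left out. The replicate block was a term for each pig in edgeR and a shared within-pig correlation in limma-voom. Exact permutation tests used scipy 1.17.1. The fits were tested on simulated data. Samples of one group came from separate pigs.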

Additional observations from a re-analysis of the deposited data

Results flagged for a closer look

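By Dixon's criterion on CPM, the gap between the highest sample and the next was large for the range of the group in 6 of 11 sets of values searched. Its share of about 1 in 20 by chance holds for normally distributed values, and low, skewed counts are not. Sets with nearly all samples at 0 meet this criterion with a few counts. The 6 flagged sets are therefore not read as an excess. The cerebellar microglia of pig 12821 had 11.06 CPM of CD163, with the next sample at 3.59 CPM, and 1.34 CPM of MRC1, with the next at 0.618 CPM. MRC1 was at 8.49 CPM in frontal cortex microglia of pig 12891. SCART1 was at 0.0802 CPM (2 counts) in cerebellar microglia of pig 12750, at 1.18 CPM (27 counts) in frontal cortex microglia of pig 12599 and at 0.126 CPM (4 counts) in hippocampal tissue of pig 12821, with every other sample of these groups at 0. The cerebellar sample of pig 12821 had a lymphoid marker sum of 179 CPM, the second highest of 8 in its group, of which CD79A gave 134 CPM, and a border macrophage marker sum of 665 CPM, where the group ran from 483 to 730 CPM. The part of other cells in these values was not tested.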

How the results depend on the processing

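Over the alternatives, CD163 and MRC1 remained called in microglia against macrophages and in macrophages against tissue, with leave-one-out ranges of -7.02 to -6.38 and 7.15 to 7.74 for CD163. SCART1 was not called in DESeq2 (-11.22 for microglia and 10.60 for macrophages against tissue) or in edgeR given a replicate block for the pig (-12.65 and 10.47). With that block 5 rather than 9 C-type lectins were called, and whether this drop exceeded that over all genes was not tested. The replicate block changed no other call of the 3 genes. The sign of CD163 between hippocampal microglia and tissue, 0.05 at first, was -0.65 by limma-voom, -0.16 by DESeq2 and with RLE factors, -0.042 and -0.65 with the replicate block in edgeR and limma-voom, and -0.39 to 0.27 with samples left out. The values of single leave-outs that turned its sign were -0.000237, -0.17, -0.01, -0.07 and -0.39. MRC1 of cerebellum over frontal cortex turned to 0.29 by limma-voom and 0.32 without the frontal cortex samples of pigs 12599 and 12891, an alternative chosen after seeing the data, which also gave 0.30 for CD163, 1.80 for SCART1 and -1.48 for MRC1 of frontal cortex over hippocampus. The last was -0.47 by limma-voom and -0.16 with its block, and MRC1 of cerebellum over hippocampus was 0.15 with the edgeR block. Leaving out 1 sample gave ranges of -2.02 to 0.063 (MRC1) and -5.09 to 1.79 (SCART1) for cerebellum over frontal cortex, -0.29 to 0.84 (CD163) for cerebellum over hippocampus and -1.22 to 0.92 (MRC1) for frontal cortex over hippocampus. The ratio differences ran from 1.13 to 1.94 against macrophages and 1.98 to 2.79 against tissue, and r in cerebellum was -0.152 without the 2 farthest samples. Gene counts by region, 217, 70, 37 and 236 for cerebellum against frontal cortex, cerebellum against hippocampus, frontal cortex against hippocampus and the F test, became 511, 452, 391 and 790 in DESeq2, 129 and 17 for the first pair and for frontal cortex against hippocampus without a filter, 31, 18 and 141 for the last 3 with only the groups compared, 0, 1 and 85 for the same with the edgeR block, and 363, 287, 18 and 497 without those 2 samples. Limma-voom gave 45 for the second and, with the block, 381 for the first. With 1 sample left out they ran from 141 to 241, 35 to 113, 15 to 107 and 154 to 335. Against macrophages 4659 and 5060 genes, in place of 2597, and against tissue 7083 and 7868, in place of 3930, were called with filterByExpr and with no filter. For changes of call or direction the cause was not tested. With 0 counts in 8 microglia samples for MRC1 and in 22 for SCART1, depth limits their fitted values.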
